A study of Rattus norvegicus with 40 samples.

Results

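Microglia sense extracellular ATP through ATP-gated ion channels of the P2X family, and the data below describe the transcripts of the best known members in these cells, P2rx4 and P2rx7. They are 2 of the 32883 gene rows of the deposited count table, ENSRNOG00000001300 for P2rx4 and ENSRNOG00000001296 for P2rx7. Both were chosen for their role and not for their counts, though earlier results of these data were already known. The table does not pair its IDs with names. The gene list used here gives both symbols, and they could not be checked against the RefSeq gene table, where 0 of 47357 rows carry an Ensembl ID.

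The libraries came from microglia of 8-week-old sprague dawley rats, isolated from the medulla or from cervical segments C3 to C6 with an anti-CD11b antibody on magnetic beads. For 11 days (gestational days 10 to 21), during 8 hours a day with 15 cycles per hour, the dams had breathed either room air at 21% oxygen throughout (normoxia) or air alternating between 10.5% and 21% oxygen (hypoxia). All offspring were born and raised in normal housing. The 40 libraries made 8 groups of 5, one for each combination of sex, exposure and region, and the medulla and cord libraries of a number came from the same animal, so that there were 20 animals.

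Both receptors open a cation channel when extracellular ATP binds. P2X4 resides largely in endosomes and lysosomes, reaches the cell surface on activation, and in spinal microglia is known for driving the release of the growth factor BDNF in nerve injury pain. P2X7 needs far higher ATP concentrations, lets potassium leave the cell, and is known as a trigger of the NLRP3 inflammasome and of interleukin-1 beta release. ATP released in the medulla is part of the ventilatory response to low oxygen.

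In the RefSeq annotation of the build GRCr8 the genes are neighbours on chromosome 12 and are read from the same strand, with a ribosomal protein pseudogene, Rpl32-ps11, and 0 protein-coding genes between them. P2rx4 overlaps its other neighbour, the kinase gene Camkk2, by 282 bases, and P2rx7 overlaps no gene there. The sources used here do not give the strand setting of the counting, and reads in a stretch shared with Camkk2 could have been counted for either gene or for neither. The promoter windows are shown because the exposure was hypoxia and because neighbouring genes on one strand can be read side by side. Each runs from 250 bases before to 50 bases after the start in that table, on the minus strand, at chr12:39523040-39523339 for P2rx4 and chr12:39594873-39595172 for P2rx7 in GRCr8, while the counts were made on rn6. Capitals mark matches to the motifs searched on both strands.
P2rx4: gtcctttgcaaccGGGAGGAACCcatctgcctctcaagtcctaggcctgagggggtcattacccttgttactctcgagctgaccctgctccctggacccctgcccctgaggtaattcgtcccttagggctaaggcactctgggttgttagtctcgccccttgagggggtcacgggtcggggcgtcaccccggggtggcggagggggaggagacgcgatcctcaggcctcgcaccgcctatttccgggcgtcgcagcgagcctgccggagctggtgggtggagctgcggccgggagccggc
P2rx7: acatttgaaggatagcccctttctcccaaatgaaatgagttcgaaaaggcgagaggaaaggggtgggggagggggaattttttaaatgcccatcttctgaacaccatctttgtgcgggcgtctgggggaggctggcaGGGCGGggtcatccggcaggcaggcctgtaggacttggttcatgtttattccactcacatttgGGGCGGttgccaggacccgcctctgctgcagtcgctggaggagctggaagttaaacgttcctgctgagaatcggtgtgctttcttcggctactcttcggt
The core of the hypoxia response element, ACGTG or GCGTG, had 0 matches in either window, whereas 19.3% and 29.7% of 33469 RefSeq promoter windows of the same length held one. The GC box GGGCGG, read by Sp1, matched the P2rx7 window in 2 places and the P2rx4 window in 0, against 33.1% of all windows with a match. The NF-kappaB type motif, GGGA and CC with any 4 bases between, matched the P2rx4 window once and the P2rx7 window in 0 places, against 19.3% of all windows. The PU.1 type motif GAGGAAGT (2.42% of all windows), the AP-1 motif TGAGTCA, whose reverse complement is TGACTCA (4.63%), TATAAA (14.2%), a repeat of GAAA with any 2 bases between (3.92%) and TGACGTCA (1.83%) had 0 matches in both. The windows held 21 CpG dinucleotides for P2rx4 and 13 for P2rx7, with a median of 7 over all windows. A match is only a run of letters, and a missing match says nothing about the factor.

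Library totals ran from 6061346 to 24039411 reads and were lowest in female hypoxia medulla replicate 3. The levels below are CPM (the gene's reads per library total, set to the same total in every library), and tests used TMM factors, which correct for differences in composition and ran from 0.846 to 1.11. No defining marker of microglia or of any other cell type could be looked up by symbol in this table, so the labelled cell type was not checked and the purity of the isolations is unknown. In such bulk libraries fewer microglia and less receptor RNA per cell cannot be told apart.

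P2rx4 was detected in every library, with 247 to 2327 reads, and its 8 group means lay within 1.20-fold of each other. In the male medulla it stood at 76.7, 81.2, 112, 87.1 and 82.4 CPM in normoxia replicates 1 to 5. After hypoxia the male medulla libraries held 70.0, 77.5, 83.1, 96.8 and 77.8 CPM. These groups overlapped over most of their range, and only normoxia replicate 3 lay above every hypoxia library. In the female medulla the values were 85.4, 78.1, 136, 70.4 and 68.6 CPM under normoxia. They were 85.1, 72.3, 40.8, 76.0 and 99.7 CPM under hypoxia. The highest and the lowest P2rx4 values of all 40 libraries thus both came from the female medulla. The lowest was from the shallowest library, where 247 reads gave an exact 95% binomial interval of 35.8 to 46.2 CPM, below the value of every other library.

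P2rx4 in the cord lay within the range of the medulla libraries. Male normoxia cord libraries held 86.9, 74.4, 89.5, 74.4 and 68.8 CPM. Male hypoxia cord libraries held 68.4, 65.9, 74.1, 98.9 and 83.5 CPM. The male cord groups overlapped, with means of 78.8 ± 8.93 (SD, n = 5) and 78.2 ± 13.4 CPM. Female normoxia cord libraries held 87.4, 76.8, 129, 77.3 and 63.9 CPM, and again replicate 3 was far above the rest. Female hypoxia cord libraries held 86.1, 53.6, 71.1, 67.9 and 88.7 CPM, all within or below the normoxia range.

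The order of the P2rx4 group means was not resolved by the spread. From the highest, the means were 87.8 ± 13.9 CPM in the male normoxia medulla, 87.7 ± 27.7 in the female normoxia medulla, 86.8 ± 24.9 in the female normoxia cord and 81.1 ± 9.98 in the male hypoxia medulla. They went on with 78.8 ± 8.93 in the male normoxia cord, 78.2 ± 13.4 in the male hypoxia cord, 74.8 ± 21.7 in the female hypoxia medulla and 73.5 ± 14.3 in the female hypoxia cord (SD, n = 5 each). None of the 7 neighbouring pairs in this order differed by more than the SD of both groups, and all overlapped. With TMM factors the female hypoxia cord moved from the eighth to the fifth place, at 78.8 ± 12.2 TMM-scaled CPM.

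P2rx7 was also detected in every library, with 2768 to 16773 reads. In the male medulla it stood at 491, 698, 660, 737 and 760 CPM under normoxia. It stood at 794, 646, 837, 583 and 431 CPM under hypoxia. The hypoxia libraries reached both above and below the normoxia libraries. Female normoxia medulla libraries held 441, 525, 754, 614 and 775 CPM. Female hypoxia medulla libraries held 858, 475, 457, 1007 and 609 CPM, the widest spread of any group (681 ± 243 CPM, SD, n = 5). Replicates 1 and 4 were above every normoxia library there, and the other 3 were inside the normoxia range.

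In the cord, P2rx7 stood at 607, 510, 749, 499 and 638 CPM in male normoxia libraries. Male hypoxia libraries held 803, 559, 804, 782 and 642 CPM, 3 of them above every male normoxia library. Female normoxia cord libraries held 543, 725, 1026, 729 and 849 CPM, where replicate 3 had the highest P2rx7 value of all 40 libraries. Female hypoxia cord libraries held 822, 398, 593, 686 and 739 CPM, and replicate 2 had the lowest value of all. The 2 female groups overlapped over most of their range.

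The P2rx7 group means spanned 1.29-fold. They were 774 ± 178 CPM in the female normoxia cord, 718 ± 111 in the male hypoxia cord, 681 ± 243 in the female hypoxia medulla and 669 ± 107 in the male normoxia medulla. Below these came 658 ± 164 in the male hypoxia medulla, 648 ± 162 in the female hypoxia cord, 622 ± 144 in the female normoxia medulla and 601 ± 102 in the male normoxia cord (SD, n = 5 each). Here too 0 of 7 neighbouring pairs differed by more than both SDs. With TMM factors the female hypoxia cord moved from place 6 to place 3, at 693 ± 148 TMM-scaled CPM. Within single groups the highest library exceeded the lowest by 1.44-fold to 2.21-fold for P2rx7 and by 1.30-fold to 2.45-fold for P2rx4. Counting error was small beside this spread: the 95% intervals reached 4.08% to 12.7% of the value to either side for P2rx4 and 1.52% to 3.74% for P2rx7. Reads are not independent molecules, so these intervals cover counting error only.

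**Figure D1:**
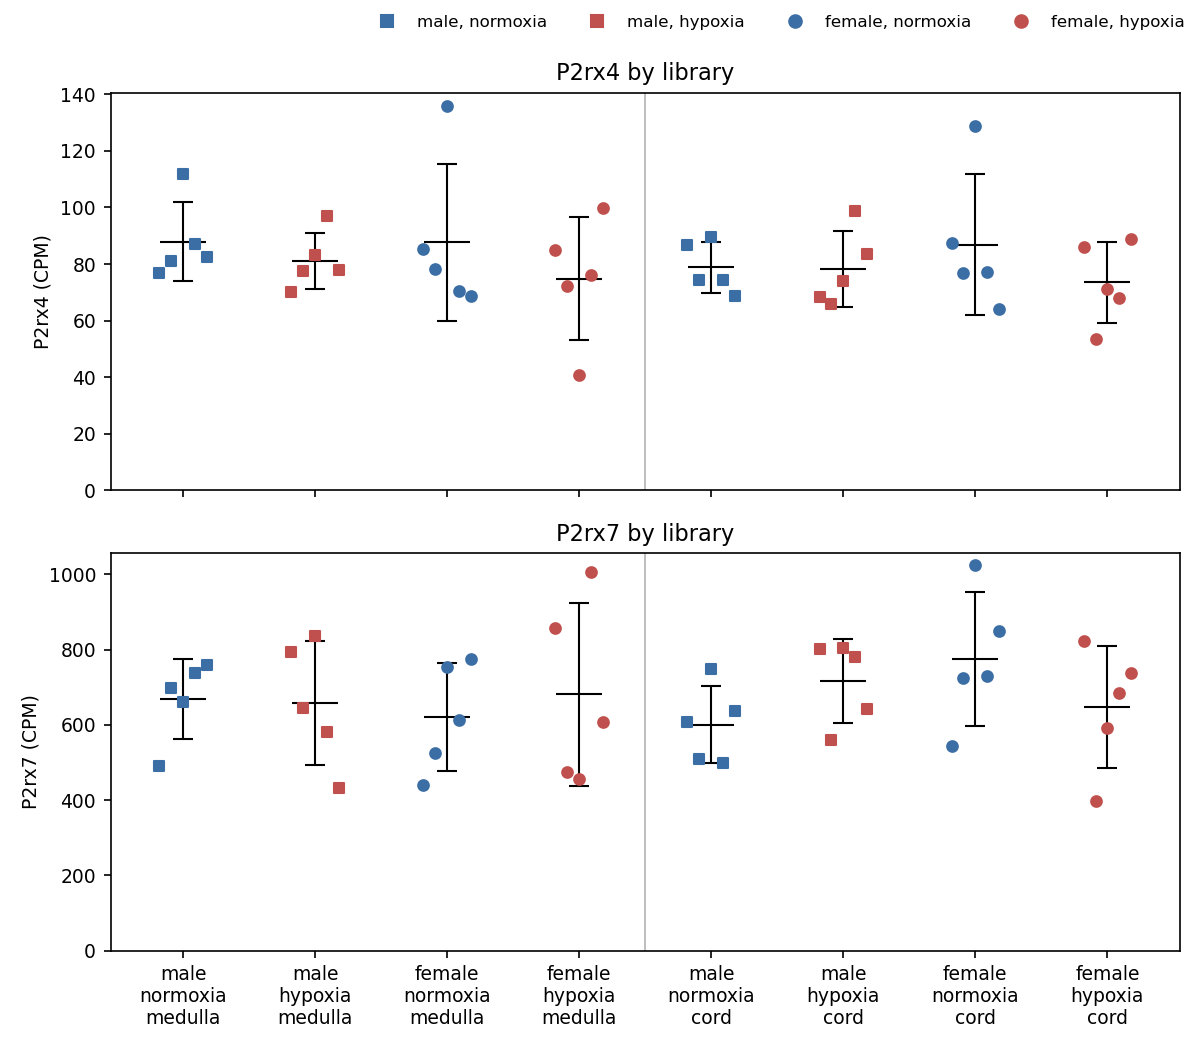
CPM (vertical axes, from 0) of P2rx4 (upper panel) and P2rx7 (lower panel) in the 40 libraries by group. Each point is a library, in replicate order from left to right, squares are males, circles females, blue normoxia and red hypoxia; bars give the mean and SD of 5 libraries. The groups overlap in both panels, and female normoxia replicate 3 is the highest P2rx4 library in the medulla (136 CPM) and in the cord (129 CPM).

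Whether gestational hypoxia left a lasting mark on these receptors was asked in each sex and region. Neither gene was called in any of the 4 comparisons with edgeR's quasi-likelihood test over all genes (Benjamini-Hochberg adjusted p under 0.05, n = 5 per group). In the female cord, where 32.8% of the genes tested were called, P2rx4 had a log2 fold change of -0.10 for hypoxia minus normoxia (SE 0.15, edgeR adjusted p = 0.668). Its 95% interval ran from -0.41 to 0.22, which is 0.752-fold to 1.17-fold. P2rx7 was at -0.12 there (SE 0.16, edgeR adjusted p = 0.610, interval 0.727-fold to 1.17-fold). These are estimates below the median size of change over all genes in that comparison, 0.36 on the log2 scale in either direction. The genes behind this median were not matched to the receptors by level, and genes with few reads carry more counting error. On plain library totals the female cord estimates were -0.24 for P2rx4 and -0.26 for P2rx7, not called, and the median log2 fold change of all genes moved with them, from -0.01 to -0.16.

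In the female medulla P2rx4 was at -0.24 (SE 0.19, edgeR adjusted p = 0.540) and P2rx7 at 0.11 (SE 0.20, edgeR adjusted p = 0.799), where 0% of all genes were called. That comparison held 2180 genes with an unadjusted p under 0.05, DESeq2 called 60 genes and voom with quality weights called 1. The P2rx4 estimate moved with single libraries: it was -0.02 without normoxia replicate 3, -0.11 without hypoxia replicate 3 and -0.34 without hypoxia replicate 5 (edgeR adjusted p = 0.969, 0.878 and 0.269). In the male cord P2rx4 was at -0.02 (SE 0.15, edgeR adjusted p = 0.984) and P2rx7 at 0.25 (SE 0.16, edgeR adjusted p = 0.776, interval 0.936-fold to 1.50-fold), beside 0% of all genes called, 841 below an unadjusted p of 0.05, and 1 and 0 called by DESeq2 and voom. In the male medulla P2rx4 was at -0.09 (SE 0.19, edgeR adjusted p = 1.00) and P2rx7 at -0.01 (SE 0.20, edgeR adjusted p = 1.00). There, too, 0% of all genes were called, with 122 below an unadjusted p of 0.05 and 0 called by DESeq2 and by voom. The P2rx4 estimate was below 0 in 4 of 4 comparisons, and its interval included 0 in each. These comparisons share no library. The medulla and cord comparisons of a sex used the same animals, so their signs are not independent. In 3 of these 4 the sign turned when a single library was left out. A miss of the threshold does not show that the levels were equal: over the 4 comparisons the intervals reached from 0.643-fold to 1.23-fold for P2rx4 and from 0.727-fold to 1.50-fold for P2rx7.

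The difference of the exposure response between the sexes was tested as an interaction. In the cord, where this term was called for 23.2% of all genes, P2rx7 had an interaction of -0.37 on the log2 scale (SE 0.23, edgeR adjusted p = 0.260). Its female and male responses there were -0.12 and 0.25. P2rx4 had an interaction of -0.07 (SE 0.22, edgeR adjusted p = 0.835). In the medulla 0% of all genes were called, 879 lay below an unadjusted p of 0.05, DESeq2 called 2 genes and voom 1. P2rx4 was at -0.15 there (SE 0.27, edgeR adjusted p = 0.908) and P2rx7 at 0.12 (SE 0.28, edgeR adjusted p = 0.925).

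Females and males were compared within each exposure and region. The nearest of all 32 tests to the threshold was that of P2rx7 in the normoxia cord, at 774 ± 178 CPM in females and 601 ± 102 CPM in males (SD, n = 5). The log2 fold change for female minus male was 0.32 (SE 0.16, fold 1.24, interval 0.982-fold to 1.58-fold), with an unadjusted edgeR p of 0.0682 and an adjusted p of 0.256, where 6.56% of all genes were called. Of the 5 female libraries, 2 lay above every male library, so the groups overlapped. Without female replicate 3 the estimate was 0.19 and without female replicate 1 it was 0.40 (edgeR adjusted p = 0.579 and 0.126). P2rx4 was at 0.08 in that comparison (SE 0.15, edgeR adjusted p = 0.799). In the hypoxia cord, with 19.6% of all genes called, P2rx4 was at 0.01 and P2rx7 at -0.05 (edgeR adjusted p = 0.960 and 0.859), and the P2rx4 sign was opposite on plain library totals. In the medulla the share of all genes called was 0.0707% under normoxia and 0.0777% under hypoxia. P2rx4 was at 0.02 under normoxia and -0.12 under hypoxia, with edgeR adjusted p values of 1.00 and 0.773, the former with the opposite sign on plain totals. P2rx7 was at -0.08 and 0.04, with edgeR adjusted p values of 1.00 and 0.933.

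Cord and medulla were compared within each sex and exposure over all 40 libraries. This fit used group means and did not use the pairing of the regions by animal. The share of all genes called was 6.55% in normoxia males, 7.76% in hypoxia males, 5.87% in normoxia females and 26.2% in hypoxia females, and the receptors were among them in 0 of the 4 comparisons. For cord minus medulla, P2rx4 was at -0.13, -0.04, -0.06 and 0.10 in this order (SE 0.18 each, edgeR adjusted p = 0.740, 0.922, 0.877 and 0.726). P2rx7 was at -0.13, 0.15, 0.28 and 0.06 (SE 0.19 each, edgeR adjusted p = 0.758, 0.709, 0.372 and 0.846). In hypoxia females both signs were opposite on plain library totals. In normoxia females P2rx7 was higher in the cord than in the medulla of the same animal in 5 of 5 animals, both on plain and on TMM-scaled CPM. With each animal as a block the SEs were smaller, at 0.10 for P2rx4 and 0.13 for P2rx7 in each of the 4 comparisons. The P2rx7 estimate in normoxia females was then 0.28 with an unadjusted edgeR p of 0.0389 and an adjusted p of 0.164, so it remained uncalled. Over all animals P2rx4 was higher in the cord in 7 of 20 and P2rx7 in 12 of 20 on plain CPM, or 8 and 14 with TMM factors.

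The response to hypoxia was also compared between the regions. In females, where 20.8% of all genes were called for this interaction, P2rx4 was at 0.15 and P2rx7 at -0.22 for cord minus medulla (SE 0.25 and 0.27, edgeR adjusted p = 0.708 and 0.602), and the P2rx4 sign was opposite on plain library totals. In males 0% of all genes were called, 279 lay below an unadjusted p of 0.05, and DESeq2 and voom called 0 each. P2rx4 was at 0.09 and P2rx7 at 0.28 in males, both with an edgeR adjusted p of 1.00. Across the 16 comparisons neither gene had an unadjusted edgeR p under 0.05 in these fits on group means. In the 12 comparisons of 2 groups, their 95% intervals for P2rx4 all lay between 0.643-fold and 1.37-fold, and those for P2rx7 between 0.703-fold and 1.58-fold. With the animal as a block, P2rx7 for cord minus medulla in normoxia females had an unadjusted edgeR p of 0.0389.

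**Figure D2:**
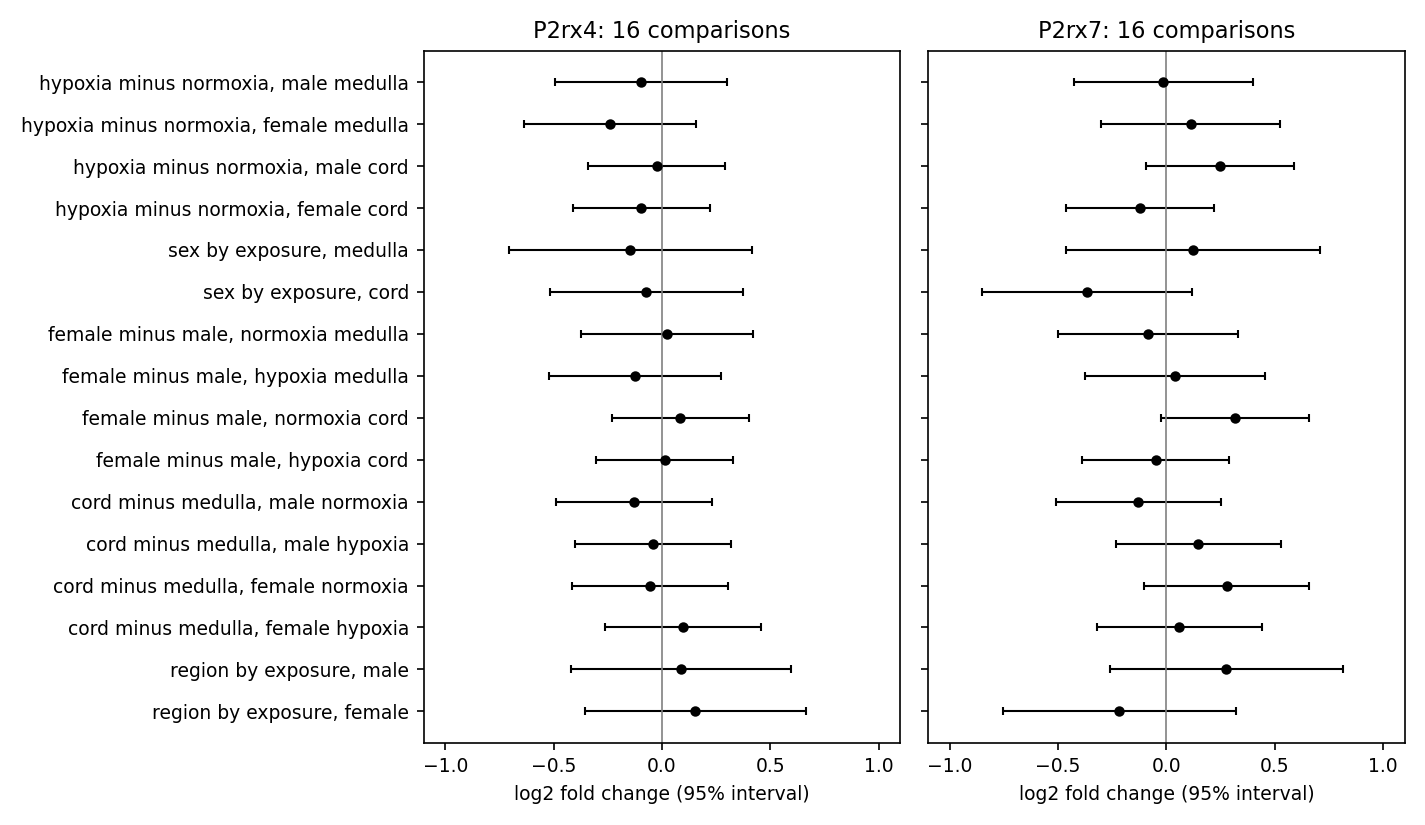
Log2 fold changes (horizontal axes) of P2rx4 (left) and P2rx7 (right) in the 16 comparisons named on the vertical axis, as points with 95% intervals. They come from the edgeR fits on group means with TMM factors, without the animal as a block. Every interval includes 0, and P2rx7 in the cord, female minus male under normoxia (0.32) and sex by exposure (-0.37), lies farthest from it.

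The ratio of P2rx7 to P2rx4 reads within a library needs no scaling between libraries. It carries the lengths of both transcripts, so only its changes can be read and not which gene is higher. The medulla means were 7.72 ± 1.47 P2rx7 reads per P2rx4 read in normoxia males and 8.26 ± 2.51 in hypoxia males. In females they were 7.49 ± 2.54 under normoxia and 9.44 ± 3.06 under hypoxia (SD, n = 5). The ranges overlapped, from 5.16 to 11.3 in normoxia females and from 6.11 to 13.2 in hypoxia females. In the cord the means were 7.64 ± 1.13 in normoxia males, 9.33 ± 1.84 in hypoxia males, 9.26 ± 2.60 in normoxia females and 8.75 ± 1.07 in hypoxia females. Exact two-sided permutation tests on the log2 ratio gave p values from 0.119 to 0.976 in the 12 comparisons of 2 groups. The lowest was that of the male cord by exposure. Benjamini-Hochberg values over these 12 ran from 0.857 upward. Before adjustment 5 against 5 can reach 0.00794, but a single comparison at that value would not pass 0.05 after adjustment. Within animals, the ratio was higher in the cord than in the medulla in 5 of 5 hypoxia males and 5 of 5 normoxia females, against 3 of 5 normoxia males and 2 of 5 hypoxia females. An exact sign-flip test over 5 animals gave p = 0.0625 in both of the former groups, the smallest it can give, so these counts cannot pass a threshold of 0.05.

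**Figure D3:**
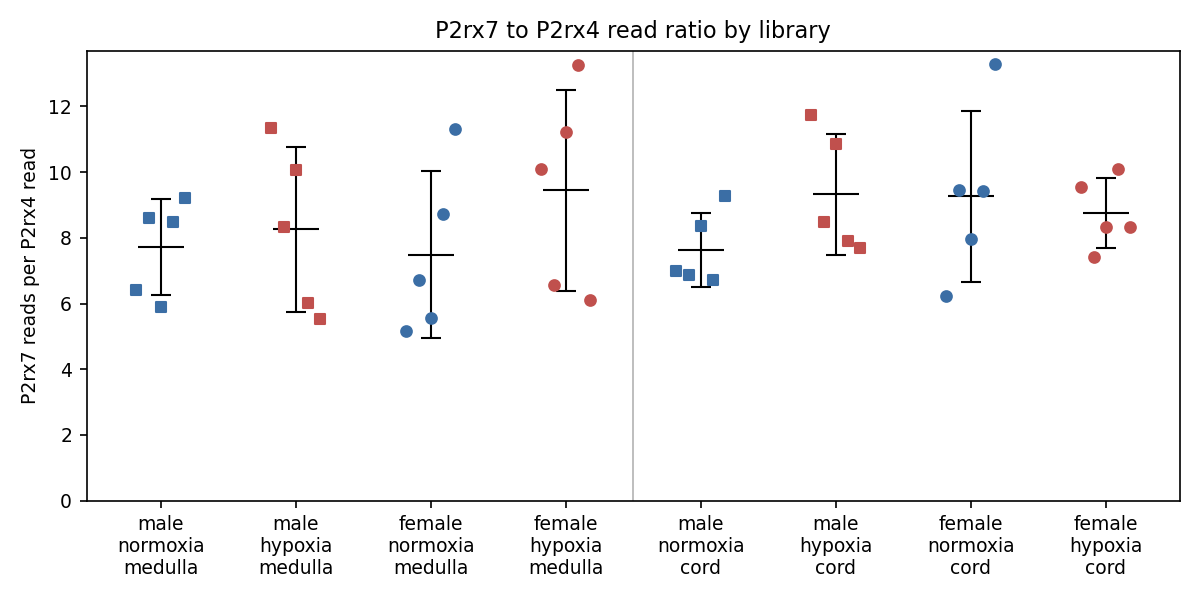
P2rx7 reads per P2rx4 read (vertical axis, from 0) in the 40 libraries by group, with the mean and SD of 5 libraries; squares are males, circles females, blue normoxia and red hypoxia. The groups overlap, between 5.16 and 13.3 over all libraries.

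The medulla and cord libraries of an animal were compared by their deviations. Around the group means, the P2rx4 deviation of the medulla library had the same sign as that of the cord library in 19 of 20 animals, with a Pearson r of 0.74 and a Spearman rho of 0.64. For P2rx7 the signs matched in 12 of 20 animals, with r at 0.61 and rho at 0.58. Male normoxia animals were the exception for P2rx7, with matching signs in 1 of 5 and r at -0.16, against 0.52 to 0.93 in the other 3 groups. Within groups r was 0.44 to 0.98 for P2rx4. Permutation tests within groups gave p = 0.00233 for r and 0.00644 for rho of P2rx4, and p = 0.0118 and 0.0184 for P2rx7. Adjusted over the 4 relations computed (Benjamini-Hochberg), the p values were 0.00932 and 0.0258 for P2rx4 and 0.0236 and 0.0368 for P2rx7. Over 14832 genes the median of the same r was 0.16, but these were not matched to the receptors by level. Without the 2 animals farthest from the median in the medulla, r was 0.52 for P2rx4 (permutation p = 0.0534) and 0.49 for P2rx7 (permutation p = 0.0655). Neither relation passed the threshold of 0.05 without those animals, which for P2rx4 were female normoxia replicate 3 and female hypoxia replicate 5. With female hypoxia replicate 3, the animal of the shallowest library, left out as well, r was 0.72 for P2rx4 and 0.44 for P2rx7. The unadjusted permutation p values were 0.00152 and 0.136. That animal had P2rx4 deviations of -0.57 in the medulla and -0.01 in the cord, so r for P2rx4 rises by leaving it out.

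Single animals stood out in both regions in CPM. Female normoxia replicate 3 had 136 and 129 CPM of P2rx4 in medulla and cord, where the other 4 females of its group had 68.6 to 85.4 and 63.9 to 87.4 CPM. Male hypoxia replicate 4 was highest of its group in both regions, at 96.8 and 98.9 CPM. Female hypoxia replicate 3 was an exception, with 40.8 CPM in its shallow medulla library and 71.1 CPM in the cord. Without that animal r for P2rx4 was 0.86. For P2rx7, female hypoxia replicate 2 was low in both regions (475 and 398 CPM) and female normoxia replicate 1 was lowest of its group in both (441 and 543 CPM). The pooled SD within groups was 0.28 on the log2 CPM scale for P2rx4 and 0.31 for P2rx7, against a median of 0.39 over 14832 genes. These genes were not matched to the receptors by level, and genes with few reads carry more counting error. The labels do not say whether the medulla and cord of an animal were processed together.

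**Figure D4:**
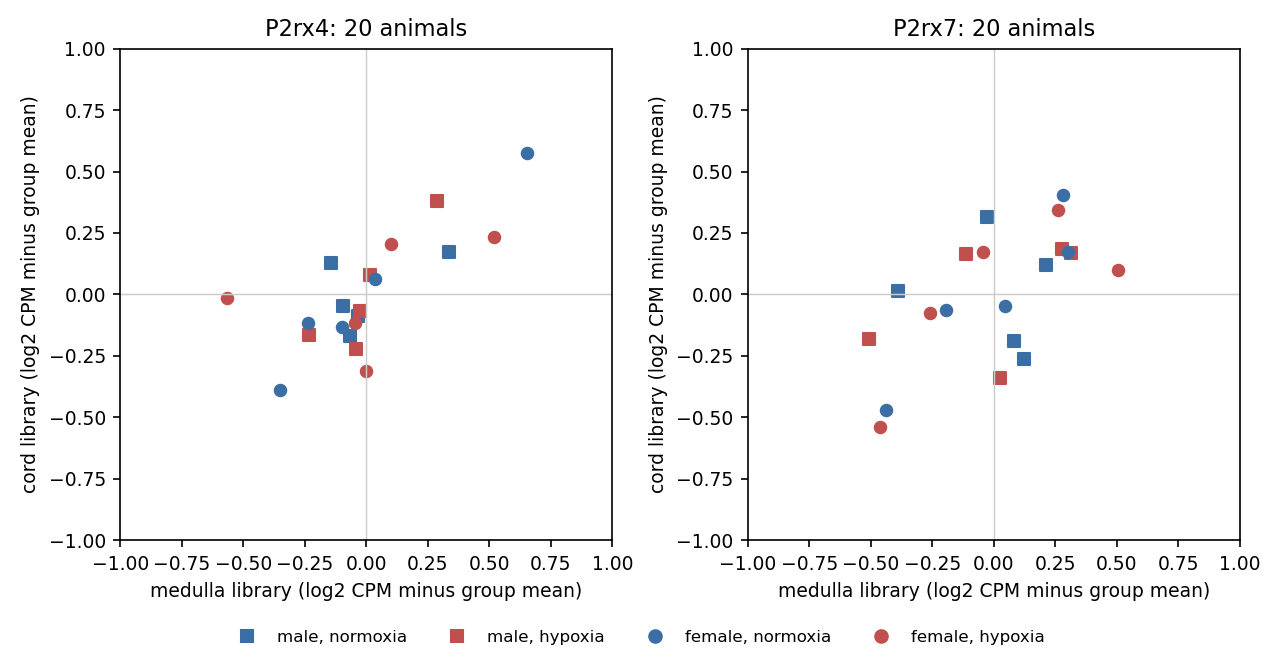
Deviation of each animal from its group mean in log2 CPM (TMM-scaled), medulla library on the horizontal and cord library on the vertical axis, for P2rx4 (left) and P2rx7 (right), 1 point per animal; squares are males, circles females, blue normoxia and red hypoxia. P2rx4 deviations share their sign in 19 of 20 animals, and female normoxia replicate 3 is the point at the upper right.

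The receptors were not shown to vary together. Across the 20 medulla libraries the deviations of P2rx4 and P2rx7 had an r of 0.07 and a rho of -0.10 (permutation p = 0.814 and 0.709). In the cord r was 0.48 and rho 0.38 (permutation p = 0.0650 and 0.135, Benjamini-Hochberg 0.0867 and 0.180 over 4 relations). Without female normoxia replicate 3 and male hypoxia replicate 4, farthest from the median of P2rx4, the cord r was 0.28 (permutation p = 0.345). On plain library totals the cord r was 0.56 with an adjusted permutation p of 0.0390.

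Over the 40 libraries, the profiles of log2 CPM most like that of P2rx7 among 11566 other genes belonged to ENSRNOG00000006733 (Pearson r 0.86) and ENSRNOG00000059480 (r 0.82). Those most like P2rx4 belonged to ENSRNOG00000026661 (r 0.72) and ENSRNOG00000000937 (r 0.65). P2rx4 came at rank 3682 in likeness to P2rx7, with r at 0.21, and P2rx7 at rank 3192 in likeness to P2rx4. These correlations describe 40 libraries of 20 animals that share regions, depths and composition, and the files do not pair these IDs with names.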

How the data were processed

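RNA of CD11b-selected microglia was sequenced in 40 libraries. The deposited file holds raw read counts per Ensembl gene, 32883 rows, none scaled by the authors, and 0 rows that name no gene. TopHat2 2.1, HTSeq and edgeR with build rn6 are named per the submitters' processing notes, without role or order; the sources used here do not give the annotation release, strand setting or filters. Every column name matched a sample label. Within groups, chi-square comparisons of library pairs gave at least 10.1 per degree of freedom, so none was a duplicate.

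Counts were tested with edgeR 4.0.16 in R 4.3.3 (quasi-likelihood F test, TMM factors, filterByExpr with a minimum count of 10), on the whole table, with Benjamini-Hochberg adjustment over all genes tested. Exposure, sex and their interaction were fitted on the 20 libraries of a region, region terms on all 40, each on group means. Standard errors and 95% intervals, unadjusted for the number of comparisons, are those implied by the F statistic. Ratios used a pseudocount of 0.5 counts. Correlations used deviations from group means of log2 CPM (prior count 2) and 100000 permutations within groups, with SciPy 1.17.1. Scripts were tested on simulated data. The alternatives were RLE and upper quartile factors, no filter, DESeq2 1.42.0, limma 3.58.1 voom with quality weights, thinning to 6061346 reads, other library sets, leaving out each library, and a replicate block. Plain library totals and leaving out female normoxia replicate 3 were added after seeing the data.

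The series design and the sample codes pair the medulla and cord of each animal; over all genes, the deviations of these pairs correlated at 0.07 to 0.42, positively in 20 of 20. By the rule fixed for naming, the genes most like each receptor were those with the highest correlation among genes averaging a log2 CPM of at least 1, 2 IDs each as no symbol was paired. The lists of other purinergic receptors, of ATP release and breakdown, of inflammasome genes and of cell type markers were fixed by symbol and could not be matched to the IDs, so they were not tested. The genes and lists were chosen with earlier results of these data known. Replicates are separate animals; whether the numbers mark litters across sexes is not stated, so p-values treat animals as independent.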

Additional observations from a re-analysis of the deposited data

Results flagged for a closer look

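P2rx4 in female normoxia medulla replicate 3 stood at 136 CPM, apart from the other 4 libraries of its group by 0.749 of the group's whole range, where 0.71 is the 95% limit of Dixon's test for 5 values. Of the 24 sets of 5 values examined (P2rx4 CPM, P2rx7 CPM and their ratio in 8 groups), 1 passed this limit, and chance passes about 1 in 20. The cord library of the same animal was at 129 CPM, also the highest of its group.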

How the results depend on the processing

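Neither receptor was called in any of the 716 values of the 32 fold changes under the alternatives, where the lowest adjusted p was 0.126 (P2rx7, female minus male, normoxia cord, without female normoxia cord replicate 1). The sign of estimates near 0 turned in 59 of them, in results of at most 0.15 in size; the cause was not tested. On plain library totals P2rx4 was at -0.0032 (female minus male, normoxia medulla), -0.0903 (female minus male, hypoxia cord), -0.029 (cord minus medulla, female hypoxia) and -0.015 (region by exposure, female), and P2rx7 at -0.073 (cord minus medulla, female hypoxia). With limma voom P2rx4 was at 0.025 (female minus male, hypoxia medulla) and 0.0504 (cord minus medulla, male hypoxia), and P2rx7 at 0.072 (hypoxia minus normoxia, male medulla), -0.19 (female minus male, hypoxia medulla) and -0.041 (sex by exposure, medulla). In thinned libraries P2rx4 was at -0.011 (female minus male, normoxia medulla), 0.015 (sex by exposure, cord) and -0.0093 (region by exposure, male). It was at -0.0051 without a filter (female minus male, normoxia medulla) and at -0.017 with only the groups compared (female minus male, hypoxia cord). RLE and upper quartile factors, DESeq2 and the other sets of libraries turned no sign.

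Leaving out 1 library at a time turned the sign of 21 fold changes, over these ranges. For hypoxia minus normoxia, P2rx4 ran from -0.17 to 0.0081 in the male medulla, -0.12 to 0.029 in the male cord and -0.19 to 0.078 in the female cord, and P2rx7 from -0.12 to 0.091 in the male medulla and -0.034 to 0.25 in the female medulla. For female minus male, P2rx4 ran from -0.20 to 0.13 in the normoxia medulla, -0.22 to 0.011 in the hypoxia medulla, -0.10 to 0.16 in the normoxia cord and -0.071 to 0.091 in the hypoxia cord. P2rx7 ran from -0.17 to 0.013 in the normoxia medulla, -0.10 to 0.19 in the hypoxia medulla and -0.14 to 0.063 in the hypoxia cord. For sex by exposure, P2rx4 ran from -0.25 to 0.10 in the medulla and -0.17 to 0.094 in the cord, and P2rx7 from -0.02 to 0.27 in the medulla. For cord minus medulla, P2rx4 ran from -0.15 to 0.037 in hypoxia males, -0.23 to 0.13 in normoxia females and -0.024 to 0.25 in hypoxia females, and P2rx7 from -0.0398 to 0.18 in hypoxia females. For region by exposure, P2rx4 ran from -0.0196 to 0.17 in males and -0.052 to 0.31 in females. The other 11 kept their sign. P2rx4 ran from -0.34 to -0.017 for hypoxia minus normoxia in the female medulla and from -0.17 to -0.035 for cord minus medulla in normoxia males. P2rx7 ran from -0.22 to -0.0064 in the female cord and 0.19 to 0.34 in the male cord for hypoxia minus normoxia, from 0.19 to 0.40 for female minus male in the normoxia cord, and from -0.47 to -0.25 for sex by exposure in the cord. For cord minus medulla it ran from -0.22 to -0.068 in normoxia males, 0.039 to 0.24 in hypoxia males and 0.17 to 0.39 in normoxia females, and for region by exposure from 0.17 to 0.36 in males and -0.34 to -0.099 in females.

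Most alternatives to the ratio tests had little room to pass, so their outcome says little about robustness. Sign-flip tests over 5 pairs cannot give a p below 0.0625, and leaving out a library raises the smallest exact p possible. The log2 ratio of P2rx4 to P2rx7 passed in 0 of 144 alternatives (lowest adjusted exact p 0.375). Its difference ran from -0.19 to 0.063 (hypoxia minus normoxia, male medulla), -0.095 to 0.18 (hypoxia minus normoxia, female cord), -0.035 to 0.25 (female minus male, normoxia medulla), -0.0088 to 0.14 (female minus male, hypoxia cord), -0.065 to 0.10 (cord minus medulla, male normoxia) and -0.085 to 0.19 (cord minus medulla, female hypoxia) when 1 library was left out. The Pearson r between the regions was 0.59 to 0.86 for P2rx4 and 0.58 to 0.61 for P2rx7 on plain totals and without either of 2 animals, with adjusted permutation p under 0.05 in each. The adjusted permutation p of Spearman's rho missed the threshold without female normoxia replicate 3 (0.0551 for both genes) and, for P2rx7, without female hypoxia replicate 3 (0.0549). Both r also missed it without the 2 animals farthest from the median (0.52 and 0.49). The cord r between the genes passed on plain totals only (0.56), and their medulla r was -0.0595 without female hypoxia replicate 3 and -0.10 without female normoxia replicate 3.

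With the replicate block no call changed: 0 of 32 fold changes passed (lowest adjusted p 0.164) and 0 signs turned. The block was the animal for region terms. For exposure and sex the libraries share only a number: same-numbered normoxia and hypoxia libraries correlated above 0.1 in 6 of 20 pairs and same-numbered males and females in 12 of 20.

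Counts over all genes moved by over 1.5 times in 13 of the 16 comparisons. In the cord they ran from 122 to 1577 (892 as reported; female minus male, normoxia), 992 to 3184 (2662; female minus male, hypoxia) and 1562 to 3663 (3155; sex by exposure), and by exposure up to 2 in males (0). In the medulla they reached 513 (0; exposure, females), 26 (10; sex, normoxia), 333 (11; sex, hypoxia) and 2 (0; sex by exposure). By region they ran from 291 to 2008 (972; normoxia males), 386 to 1849 (1151; hypoxia males), 291 to 2659 (870; normoxia females), 132 to 4853 (3886; hypoxia females) and 1083 to 4082 (3078; region by exposure, females). In the female cord by exposure they stayed between 3086 and 4877. The 95% counting intervals reached at most 12.7% either side of a level for P2rx4 and 3.74% for P2rx7. The SDs within groups were 0.28 and 0.31 on the log2 scale, so their unit and coverage differ from those of the intervals. These SDs hold differences between animals, isolations and library preparations together.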
